A study of Mus musculus with 5 samples.

Results

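Translation initiation and elongation factors were followed in RNA-sequencing libraries of Ba/F3 cells, an interleukin-3-dependent mouse pro-B cell line. The genes were chosen by symbol, as the rows of the table whose names begin with EIF1 to EIF6 or with EEF1 or EEF2. Of 210 such rows, 137 described as pseudogenes or placed on chromosome Y were left out. The remaining 73 of the 50867 rows were 59 initiation and 14 elongation factor genes, sorted by symbol. Relatives, regulators and modifying enzymes with such symbols were included, and so were 4 noncoding neighbours among the initiation rows.

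All 5 libraries came from Ba/F3 cells infected with lentivirus, and each group had 1 library. The groups were labelled S_PXT1_K118R, S_PXT1, WT_K118R, WT and PMSCV. PXT1 is the symbol of a testis-expressed gene, K118R is the usual notation for a lysine changed to an arginine, and PMSCV is the name of a viral vector backbone. The labels do not say what S and WT stand for, which protein carries K118R in the WT_K118R cells, whether the cells were pooled or cloned, or when they were harvested. With 1 library in each group there was no replicate check on any difference, no test was made across libraries and no p-value is given. The intervals below are exact 95% intervals that cover counting error only.

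Although the cells are from mouse, the table lists human gene identifiers, human symbols and human coordinates, of a build not given in the sources used here. A count is therefore the number of reads listed for a human gene model. Libraries held 250409 to 351693 counts, so 1 count was worth 2.924 to 3.931 CPM (counts scaled to a common library size by the TMM method), and a floor of 3 counts stood at 8.773 to 11.79 CPM. Any count was listed for 7044 genes in S_PXT1_K118R and 7393 in S_PXT1, against 11504 in WT_K118R, 11712 in WT and 11492 in PMSCV. Genes averaging under 20 counts over the 5 libraries summed to 0.491 times their PMSCV level in S_PXT1_K118R and 0.508 times in S_PXT1, against 0.913 times in WT_K118R and 0.927 times in WT. Markers of B cells and of Ba/F3, as counted on human gene models, did not bear out the labelled cell type. The 12 such genes summed to 0 counts in S_PXT1_K118R, 1 in S_PXT1, 4 in WT_K118R, 9 in WT and 5 in PMSCV. CD79A, CD79B, VPREB1, IGLL1, RAG1, RAG2 and IL3RA were at 0 in every library. Whether mouse reads of these genes would be listed for human models was not tested, so these counts cannot settle the cell type.

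Initiation factors bring the initiator tRNA, the small ribosomal subunit and the capped mRNA together at a start codon. EIF2 carries the initiator tRNA, EIF3 is the scaffold on the small subunit, the EIF4 group binds the cap and unwinds the leader, and EIF1 and EIF5 govern the choice of the start codon. Elongation factors then work the reading frame: eEF1A delivers each aminoacyl-tRNA, the eEF1B complex recharges eEF1A with GTP, and EEF2 moves the ribosome along. The mRNAs of many of these factors start with a run of pyrimidines, the terminal oligopyrimidine motif through which mTOR signalling and LARP1 control their translation in mammals.

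Initiation factors took 5.09% of all counts in S_PXT1_K118R (5.01 to 5.18) and 4.80% in S_PXT1 (4.72 to 4.88), against 4.41% in WT_K118R, 4.41% in WT and 3.87% in PMSCV (3.80 to 3.94). Their summed level was 1.36 times that of PMSCV in S_PXT1_K118R (1.33 to 1.40), 1.32 times in S_PXT1 (1.28 to 1.35), and 1.24 times in both WT_K118R and WT. The gene with the most counts in that sum was EIF4G2, with 6387 of 12756 counts in S_PXT1_K118R, 5893 of 12427 in S_PXT1, 7209 of 15336 in WT_K118R, 6805 of 15516 in WT and 4357 of 10328 in PMSCV. Without it, the fold over PMSCV was 1.18 in S_PXT1_K118R, 1.20 in S_PXT1, 1.13 in WT_K118R and 1.20 in WT. All genes of the table summed to 1.04 times their PMSCV level in S_PXT1_K118R, 1.06 in S_PXT1, 1.09 in WT_K118R and 1.08 in WT. Genes averaging under 20 counts summed lower in each, as given above, so better counted genes as a whole lay above these folds. A rise over PMSCV was thus not particular to initiation factors. Elongation factors took 1.34% to 1.39% of counts in every library, and their sum was 1.04 to 1.11 times its PMSCV level in the other 4. Most of that sum was EEF1G. Without it, the rest was 0.737 times the PMSCV level in S_PXT1_K118R (0.643 to 0.843) and 0.588 times in S_PXT1 (0.508 to 0.679), against 0.902 times in WT_K118R and 1.01 times in WT. Beneath the sums, EIF4G2 and EIF5 stood higher in the S-labelled pair, while EIF4B, several EIF3 subunits and EEF1A1 stood lower there.

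Of the 73 genes, 24 averaged 20 counts or more over the 5 libraries, 21 for initiation and 3 for elongation, as did 1547 genes of the whole table. Of the other 49, 3 had no count in any library. Since the filter uses the mean over all libraries, the 24 are not the whole group, and a gene that is low in the S-labelled pair can fall under it.

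**Figure D1:**
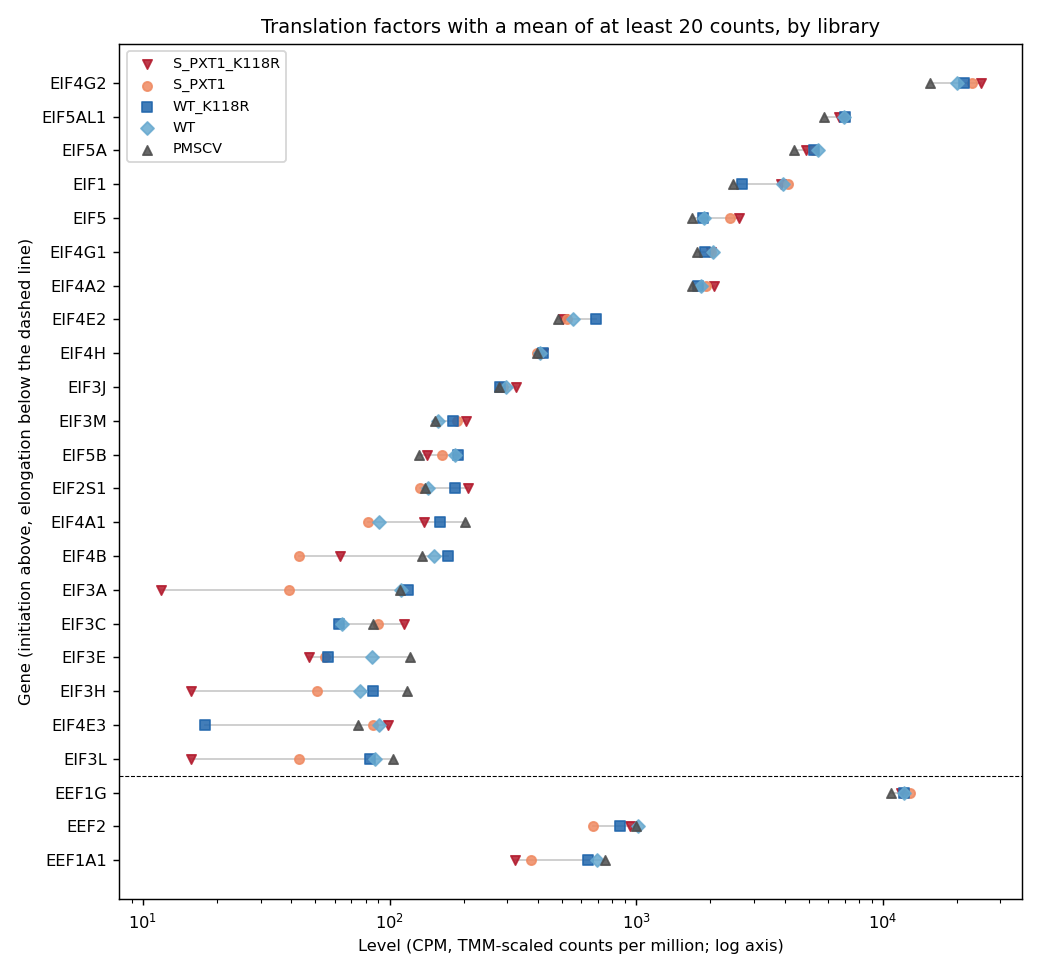
Level of each of the 24 factor genes that averaged 20 counts or more (log axis, CPM after TMM scaling), 1 point for each library, with initiation factors above the dashed line and elongation factors below it. The points of EIF4B, EIF3A, EIF3H, EIF3L and EEF1A1 are spread out, with both S-labelled libraries on the left, while EIF4E3 has a lone low point at 17.78 CPM in WT_K118R.

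Transcript starts are printed for the genes that were below, or above, the other 3 libraries in both S-labelled libraries, because the pyrimidine run is read at that place. The windows are from RefSeq for mouse (GRCm38.p6), 5 bases before to 25 bases from the first listed start, 30 bases on the coding strand, and capitals mark every run of at least 6 bases that are all C or T. The genes below in both are these, with EIF3E and EIF3H named only.
EEF1A1: CCCTCTTCCCgagggtgggggagaacggta
EIF3L: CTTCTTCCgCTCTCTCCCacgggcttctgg
EIF4B: tcggacgccgcgccaCCCCCTCgcgctgct
EIF3A: gcggcggcgctgccgccgcgagggaatcac

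In order, they lie at chr9:78481700-78481729 on the minus strand, chr15:79075218-79075247 on the plus strand, chr15:102073768-102073797 on the plus strand and chr19:60790669-60790698 on the minus strand. The genes above in both are the next 4, with EIF4G2 named only.
EIF5: tgcatgcgagccaatgacaagagaagttgg
EIF4A2: cccgtaggagcagggcggccgaggagcgcg
EIF3M: ggcgtgtttctggatcggagcgTCTTCCgc
EIF3C: cagagggactcggcagcttagctggttcgt

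They lie at chr12:111538096-111538125 on the plus strand, chr16:23107463-23107492 on the plus strand, chr2:105017003-105017032 on the minus strand and chr7:126566342-126566371 on the minus strand. A run of at least 6 pyrimidines, counted anywhere in the window, was found for 3 of the 4 genes below and 1 of the 4 genes above. It was also in 14 of the 49 factor genes that matched the RefSeq table (28.6%) and in 26.2% of all 27025 mouse symbols, so the windows are a description of 8 genes and set no group apart. A run spans the listed start in EEF1A1 and EIF3L only. In EIF4B and EIF3M it lies further in, away from the listed start. The start is the annotated one and was not measured in these cells.

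EIF4G2, a relative of the EIF4G scaffold that lacks the cap-binding protein's docking site and serves non-canonical initiation, was the most counted member. It is listed on human chromosome 11 from 10797050 to 10809110. It had 25109 CPM in S_PXT1_K118R and 22974 CPM in S_PXT1, against 21365 CPM in WT_K118R, 19901 CPM in WT and 15494 CPM in PMSCV. Both S-labelled libraries stood above the other 3, and PMSCV was the lowest. The fold over PMSCV was 1.62 in S_PXT1_K118R (1.56 to 1.69), 1.48 in S_PXT1 (1.43 to 1.54), 1.38 in WT_K118R and 1.28 in WT. These comparisons share the PMSCV library, so a low PMSCV value alone would move all of them. On pairs with no library in common, EIF4G2 was 1.15-fold higher in S_PXT1 than in WT (1.11 to 1.20) and 1.18-fold higher in S_PXT1_K118R than in WT_K118R (1.14 to 1.22).

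EIF4G1, EIF4A2 and EIF4H were among the steadier genes. EIF4G1, the scaffold that joins cap-binding protein and helicase, had 2017 CPM in S_PXT1_K118R, 2012 in S_PXT1, 1894 in WT_K118R, 2047 in WT and 1767 in PMSCV, within 1.16-fold of each other. EIF4A2, an RNA helicase, had 2076 CPM in S_PXT1_K118R and 1914 in S_PXT1, against 1784 in WT_K118R, 1834 in WT and 1682 in PMSCV. EIF4H, which stimulates that helicase, lay between 394.7 and 420.8 CPM, the flattest gene of the 24. EIF4E, the cap-binding protein itself, had only 3 to 6 counts in each library, at or near the floor. Its 5 pseudogene rows had 50 to 70 counts in each library, so its own level is uncertain.

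EIF4E relatives differed more. EIF4E2, a cap-binding protein that represses translation, was highest in WT_K118R at 687.6 CPM, with 503.2 CPM in S_PXT1_K118R, 526.3 in S_PXT1, 552.7 in WT and 483.6 in PMSCV. EIF4E3, a further cap-binding relative of EIF4E, had 25 counts in S_PXT1_K118R, 22 in S_PXT1, 6 in WT_K118R, 31 in WT and 21 in PMSCV. WT_K118R alone was low, and the other 4 lay together. Its fold was 0.196 in WT_K118R over WT (0.0669 to 0.477) and 5.53 in S_PXT1_K118R over WT_K118R (2.21 to 16.5), and both rest on the same 6 counts. The K118R label did not go with a low EIF4E3 level on the other background, where S_PXT1_K118R over S_PXT1 was 1.15 (0.620 to 2.13).

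EIF4B, an activator of the EIF4A helicase, was low in the S-labelled pair. It had 16 counts in S_PXT1_K118R and 11 in S_PXT1, against 58 in WT_K118R, 52 in WT and 38 in PMSCV, and the groups did not overlap. On the CPM scale it was at 62.9 in S_PXT1_K118R and 42.88 in S_PXT1, against 171.9 in WT_K118R, 152.1 in WT and 135.1 in PMSCV. The fold was 0.282 in S_PXT1 over WT (0.133 to 0.547) and 0.366 in S_PXT1_K118R over WT_K118R (0.196 to 0.645), 2 comparisons that share no library. The 9 rows named as EIF4B pseudogenes did not do the same: they summed to 377.4 CPM in S_PXT1_K118R and 432.7 CPM in S_PXT1, against 343.8 CPM in WT_K118R, 321.7 CPM in WT and 362.7 CPM in PMSCV. EIF4B held 14.3% of its family's counts in S_PXT1_K118R (8.39 to 22.2) and 9.02% in S_PXT1 (4.59 to 15.6), against 33.3% in WT_K118R, 32.1% in WT and 27.1% in PMSCV (19.98 to 35.3). With the pseudogene rows added, the fold was 1.004 in S_PXT1 over WT (0.787 to 1.28) and 0.854 in S_PXT1_K118R over WT_K118R (0.667 to 1.09), and both intervals held 1. How the counting divided reads between a gene and near-identical copies was not stated in the sources used here, so the EIF4B level is uncertain.

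EIF4A1, the major helicase, was low in S_PXT1 and WT, with 35 counts in S_PXT1_K118R, 21 in S_PXT1, 54 in WT_K118R, 31 in WT and 57 in PMSCV. A readthrough model, SENP3-EIF4A1, overlaps it and had 28 counts in S_PXT1 and 66 in WT, and 0 in S_PXT1_K118R, WT_K118R and PMSCV. The neighbour SENP3 mirrored it, with 39 counts in S_PXT1_K118R, 3 in S_PXT1, 38 in WT_K118R, 5 in WT and 19 in PMSCV. Summed, the 3 models had 74 counts in S_PXT1_K118R, 52 in S_PXT1, 92 in WT_K118R, 102 in WT and 76 in PMSCV. EIF4A1 alone had a fold of 0.447 in WT over PMSCV (0.279 to 0.705), and all 3 models together had 1.10 (0.812 to 1.51). In S_PXT1 over PMSCV the fold was 0.404 for EIF4A1 alone (0.233 to 0.677) and 0.750 for the 3 together (0.517 to 1.08). The K118R fold of EIF4A1 was 1.68 in S_PXT1_K118R over S_PXT1 (0.952 to 3.04) and 1.76 in WT_K118R over WT (1.11 to 2.84), and in both the readthrough model was at 0 on the K118R side alone. In S_PXT1_K118R over S_PXT1, the fold was 0.720 (0.453 to 1.13) with that model added to EIF4A1 and 1.44 (0.993 to 2.09) for all 3 models. In WT_K118R over WT it was 0.564 (0.397 to 0.795) with that model added and 0.914 (0.682 to 1.22) for all 3, so the direction depended on which models were summed.

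**Figure D2:**
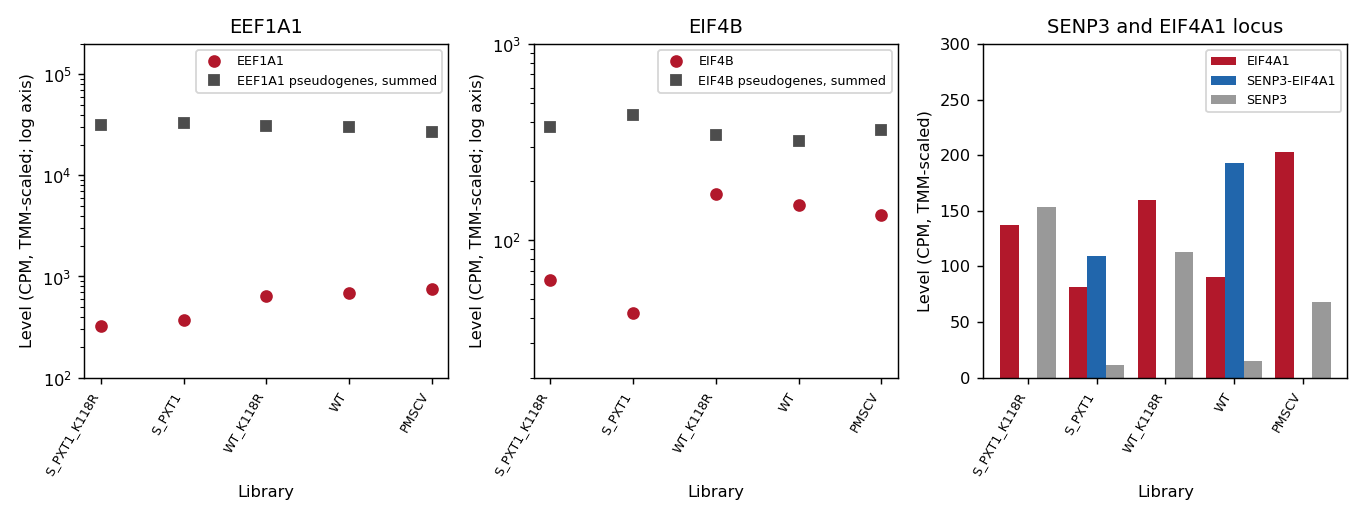
Level in CPM after TMM scaling of EEF1A1 and EIF4B beside the sums of their pseudogene rows (left and middle, log axes) and of the 3 overlapping models at the EIF4A1 locus (right, bars from 0), by library. EEF1A1 and EIF4B are low in both S-labelled libraries, where the pseudogene sums are not lower than in the other 3. SENP3-EIF4A1 has bars in S_PXT1 and WT and none in the other 3.

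Factors of scanning and start codon choice were among the higher ones. EIF1, which guards start codon fidelity, had 3876 CPM in S_PXT1_K118R, 4129 in S_PXT1, 2688 in WT_K118R, 3957 in WT and 2475 in PMSCV. WT_K118R lay near PMSCV, and the other 3 libraries lay well above both. Over PMSCV the fold was 1.57 in S_PXT1_K118R (1.42 to 1.73), 1.67 in S_PXT1 (1.51 to 1.84), 1.09 in WT_K118R (0.983 to 1.20) and 1.60 in WT (1.46 to 1.75). The K118R fold was 0.679 on the WT background (0.624 to 0.740) and 0.939 on the S_PXT1 background (0.860 to 1.02), a difference with no replicate check. EIF5, the GTPase activator of EIF2, had 2622 CPM in S_PXT1_K118R and 2398 in S_PXT1, against 1867 in WT_K118R, 1880 in WT and 1689 in PMSCV. It was 1.27-fold higher in S_PXT1 than in WT (1.14 to 1.43) and 1.40-fold higher in S_PXT1_K118R than in WT_K118R (1.26 to 1.57). EIF5B, the GTPase that joins the large subunit, lay between 131.6 and 189.7 CPM with overlapping intervals.

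EIF5A, the factor with the modified residue hypusine that helps the ribosome through difficult peptide bonds, shares its reads with EIF5AL1, a near-identical copy in the human annotation. Both were counted with the initiation factors by symbol alone, although that role belongs to elongation. The pair had 2935 of the 12756 initiation counts in S_PXT1_K118R and 2848 of 10328 in PMSCV. The initiation and elongation sums therefore depend on where the pair is placed. EIF5A had 4883 CPM in S_PXT1_K118R, 5197 in S_PXT1, 5249 in WT_K118R, 5457 in WT and 4363 in PMSCV. EIF5AL1 had 6656 CPM in S_PXT1_K118R, 7045 in S_PXT1, 7015 in WT_K118R, 6987 in WT and 5765 in PMSCV. PMSCV was the lowest for both, and the other 4 lay close together. EIF5A held 42.3% to 43.9% of the counts of the pair in every library, an even split, so the pair can be read only as a sum. That sum was 1.14 times its PMSCV level in S_PXT1_K118R (1.08 to 1.20), 1.21 times in S_PXT1, 1.21 times in WT_K118R and 1.23 times in WT.

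EIF3 subunits split within the complex. EIF3A, the largest subunit and part of the core, had 3 counts in S_PXT1_K118R and 10 in S_PXT1, against 40 in WT_K118R, 38 in WT and 31 in PMSCV. EIF3H had 4 counts in S_PXT1_K118R and 13 in S_PXT1, against 29 in WT_K118R, 26 in WT and 33 in PMSCV. EIF3L had 4 counts in S_PXT1_K118R and 11 in S_PXT1, against 28 in WT_K118R, 30 in WT and 29 in PMSCV. For each of these genes S_PXT1_K118R was lowest and S_PXT1 second lowest, below the 3 other libraries. EIF3E stood at 47.17 CPM in S_PXT1_K118R and 54.58 in S_PXT1, next to 56.31 in WT_K118R, with 84.81 in WT and 120.9 in PMSCV.

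In S_PXT1_K118R over WT_K118R the fold was 0.0995 for EIF3A (0.0197 to 0.312), 0.183 for EIF3H (0.0467 to 0.521) and 0.190 for EIF3L (0.0483 to 0.542). In S_PXT1 over WT it was 0.351 for EIF3A (0.156 to 0.718), 0.666 for EIF3H (0.315 to 1.34) and 0.489 for EIF3L (0.221 to 1.003). Between the S-labelled libraries themselves, S_PXT1_K118R over S_PXT1 was 0.302 for EIF3A (0.0535 to 1.18), and counts of 3 and 10 could not resolve that difference from 1. Below 20 counts on average, EIF3B, EIF3D and EIF3I also stood below the other 3 libraries in both S-labelled libraries. EIF3F, EIF3G and EIF3K did so in S_PXT1 alone. In S_PXT1_K118R, EIF3F (39.31 CPM) and EIF3G (51.11 CPM) were at their highest of all libraries. EIF3K was at 23.59 CPM there, above PMSCV at 21.34 CPM. EIF3D, which can itself bind the cap, had 12 counts in S_PXT1_K118R and 3 in S_PXT1, against 24 in WT_K118R, 23 in WT and 16 in PMSCV. EIF3J, EIF3M and EIF3C were not lower there. EIF3J, the loosely bound subunit, lay between 277.4 and 326.3 CPM. EIF3M was at 204.4 CPM in S_PXT1_K118R and 187.1 in S_PXT1, against 180.8 in WT_K118R, 157.9 in WT and 152.9 in PMSCV. EIF3C, another core subunit with a near-identical human copy, EIF3CL, was read with that copy: the pair had 50 counts in S_PXT1_K118R, 33 in S_PXT1, 31 in WT_K118R, 34 in WT and 34 in PMSCV, and S_PXT1_K118R over WT_K118R was 2.14 (1.34 to 3.46). All 14 rows of the EIF3 complex summed to 0.837 times the PMSCV level in S_PXT1_K118R (0.711 to 0.984) and 0.740 times in S_PXT1 (0.625 to 0.875), against 0.944 times in WT_K118R and 0.964 times in WT. EIF3J and EIF3M are the most counted subunits, and leaving them out was a choice made with their values known. Without them, the other 12 rows summed to 0.631 times in S_PXT1_K118R (0.506 to 0.784) and 0.550 times in S_PXT1 (0.437 to 0.690), against 0.876 times in WT_K118R and 0.918 times in WT. All genes averaging under 20 counts, a range that holds some of these rows, summed lower, to 0.491 times in S_PXT1_K118R and 0.508 times in S_PXT1. Fewer cells of one kind and less RNA per cell cannot be told apart in such bulk libraries.

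**Figure D3:**
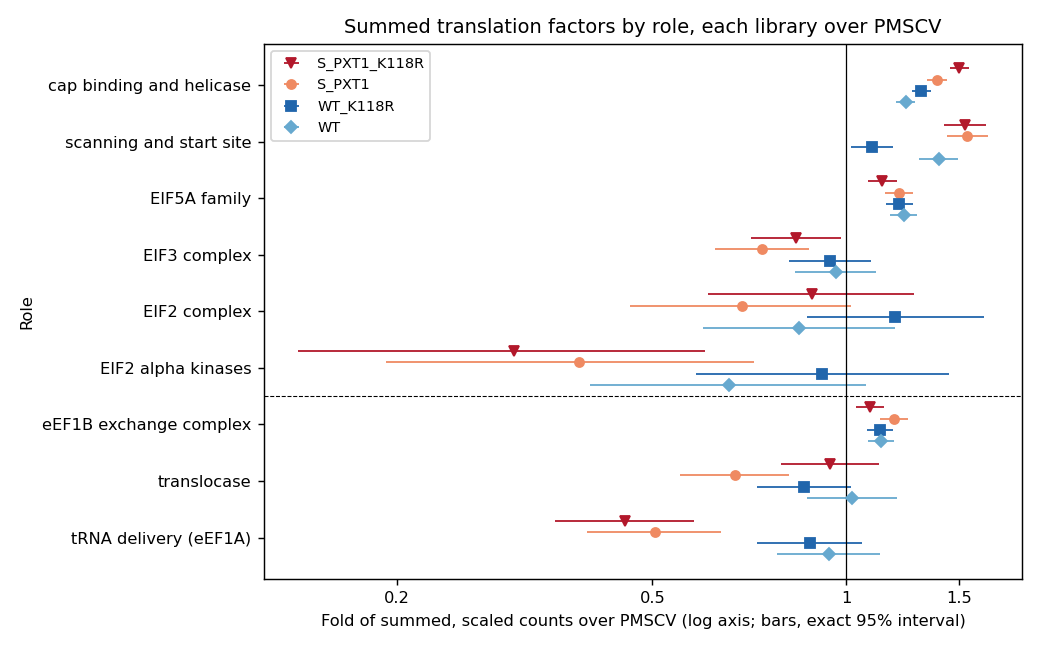
Fold over PMSCV (log axis) of the summed, scaled counts of the role groups with the most counts in the other 4 libraries, with exact 95% intervals of counting error, initiation above the dashed line and elongation below it. Cap-binding and scanning factors lie above 1, at up to 1.54. Of the groups drawn, the EIF2 alpha kinases (0.304 in S_PXT1_K118R and 0.384 in S_PXT1) and eEF1A (0.454 in S_PXT1_K118R and 0.504 in S_PXT1) lie lowest in the S-labelled libraries. Each kinase averaged under 20 counts, a range where all genes summed to 0.491 in S_PXT1_K118R and 0.508 in S_PXT1.

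EIF2 and its regulators were thinly counted. EIF2S1, the alpha subunit whose phosphorylation slows initiation, had 208.4 CPM in S_PXT1_K118R, 132.6 in S_PXT1, 183.7 in WT_K118R, 143.3 in WT and 138.7 in PMSCV. EIF2S2, the beta subunit, had 0 counts in S_PXT1_K118R, 3 in S_PXT1, 11 in WT_K118R, 9 in WT and 10 in PMSCV, while its 5 pseudogene rows had 292 to 411 counts in each library, so its own level is uncertain. EIF2S3, the gamma subunit, had 0 counts in S_PXT1_K118R and 4 in S_PXT1, against 22 in WT_K118R, 10 in WT and 15 in PMSCV. Against the floor of 3 counts, it was at least 5.53-fold lower in S_PXT1_K118R than in WT_K118R. The 4 EIF2 alpha kinases, which put that phosphate on, together had 11 counts in S_PXT1_K118R and 14 in S_PXT1, against 44 in WT_K118R, 32 in WT and 40 in PMSCV. EIF2AK4 alone was not low in S_PXT1_K118R. It had 9 of the 11 counts there and 2 in S_PXT1, against 11 in WT_K118R, 10 in WT and 9 in PMSCV. EIF2A, an alternative carrier of initiator tRNA, had 1 count in each S-labelled library, against 9 in WT_K118R, 10 in WT and 19 in PMSCV.

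EIF2B3, a subunit of the exchange factor that recharges EIF2, went the other way. It had 15 counts in S_PXT1_K118R and 16 in S_PXT1, against 1 in WT_K118R and 0 in both WT and PMSCV. Against the floor of 3 counts in WT, it was at least 7.11-fold higher in S_PXT1, and S_PXT1_K118R over WT_K118R was 19.9 with an interval of 3.06 to 838. It is singled out here after its values were seen, and its mean lay under 20 counts.

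Among elongation factors, EEF1A1 was low in both S-labelled libraries. It is the general eEF1A isoform, listed on human chromosome 6 from 73515750 to 73523797. It had 82 counts in S_PXT1_K118R and 96 in S_PXT1, against 215 in WT_K118R, 237 in WT and 210 in PMSCV, and the CPM level was 322.4 in S_PXT1_K118R and 374.3 in S_PXT1, against 637.2 in WT_K118R, 693.1 in WT and 746.8 in PMSCV. The S-labelled pair lay below the other 3 with a wide gap. Its fold was 0.540 in S_PXT1 over WT (0.421 to 0.687), 0.506 in S_PXT1_K118R over WT_K118R (0.387 to 0.655), 0.501 in S_PXT1 over PMSCV (0.390 to 0.641) and 0.432 in S_PXT1_K118R over PMSCV (0.330 to 0.560). EEF1A2, the muscle and neuron isoform, had 10 counts in S_PXT1_K118R and 7 in S_PXT1, against 21 in WT_K118R, 19 in WT and 14 in PMSCV.

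Far more reads were listed for EEF1A1 pseudogenes than for EEF1A1. The 39 rows had 7964 counts in S_PXT1_K118R and 8457 in S_PXT1, against 10353 in WT_K118R, 10266 in WT and 7585 in PMSCV. EEF1A1P5 alone held 6187 to 8434 of them. These rows were higher, not lower, in the S-labelled pair than in PMSCV, at 1.16-fold in S_PXT1_K118R (1.12 to 1.20) and 1.22-fold in S_PXT1 (1.19 to 1.26). EEF1A1 itself held 1.02% of the family's counts in S_PXT1_K118R (0.811 to 1.26) and 1.12% in S_PXT1 (0.910 to 1.37), against 2.03% in WT_K118R (1.77 to 2.32), 2.26% in WT (1.98 to 2.56) and 2.69% in PMSCV (2.35 to 3.08). Gene and pseudogenes together were 1.14 times the PMSCV level in S_PXT1_K118R and 1.20 times in S_PXT1, against 1.13 times in WT_K118R and 1.11 times in WT. The low EEF1A1 level is thus a statement about the EEF1A1 row, not about all eEF1A-like reads.

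EEF1G, the scaffold subunit of the eEF1B exchange complex, had 11798 CPM in S_PXT1_K118R, 12865 in S_PXT1, 12175 in WT_K118R, 12201 in WT and 10796 in PMSCV, a span of 1.19-fold. Its partner EEF1B2, the subunit that ejects GDP, had 12 to 31 counts, with 55.04 CPM in S_PXT1_K118R and 46.78 in S_PXT1, next to 62.24 in WT_K118R, 90.66 in WT and 56.9 in PMSCV. EEF1D, the other exchange subunit, had 0 counts in S_PXT1_K118R and 2 in S_PXT1, against 20 in WT_K118R, 13 in WT and 6 in PMSCV. Per length, on the authors' FPKM scale, EEF1G was at 3281 to 3671 and EEF1A1 at 25.4 to 61.1 over the 5 libraries. These values do not rank the expression of the 2 genes, since the EEF1A1 row held only 1.02% to 2.69% of its family's counts.

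EEF2, the translocase, was lowest in S_PXT1. It had 943.5 CPM in S_PXT1_K118R, 670.6 in S_PXT1, 859.5 in WT_K118R, 1021 in WT and 999.3 in PMSCV. The fold was 0.671 in S_PXT1 over PMSCV (0.552 to 0.814) and 0.657 in S_PXT1 over WT (0.544 to 0.791), but 1.10 in S_PXT1_K118R over WT_K118R (0.921 to 1.31). Its start window at chr10:81176626-81176655 on the plus strand of the same mouse build holds a pyrimidine run further in.
EEF2: cgggcgttgacgtcagcggTCTCTTCCgcc

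At 2-fold, among genes averaging 20 counts or more, no initiation factor was higher than in PMSCV and some were lower. Lower means here a log2 ratio of CPM plus 1 past the threshold. In S_PXT1_K118R, 0 of 21 initiation factors were higher and 5 lower (EIF4B, EIF3L, EIF3E, EIF3A and EIF3H), where 3.10% of all 1547 genes were higher and 8.34% lower. In S_PXT1, 0 were higher and 6 lower, the same 5 genes and EIF4A1, where 3.49% of all genes were higher and 7.82% lower. In WT_K118R, 0 were higher and 2 lower, EIF3E and EIF4E3, where 2.84% were higher and 2.71% lower. In WT, 0 were higher and 1 lower, EIF4A1, where 2.71% were higher and 2.65% lower. Of the 3 elongation factors, EEF1A1 was past 2-fold lower in S_PXT1_K118R, just short of it in S_PXT1, and none was past it in WT_K118R or WT.

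Apart from EEF1A1, the lower calls in the S-labelled libraries fell on thinly counted genes, and lower calls were more frequent there for the whole table too. Of 668 genes averaging 20 to 50 counts, 14.4% were 2-fold lower in S_PXT1_K118R than in PMSCV and 13.6% in S_PXT1, where 5 and 6 of the 10 factor genes in that range were. In the same range 13.0% were lower in S_PXT1_K118R than in WT_K118R, with 4 of the 10 factor genes, 11.4% were lower in S_PXT1 than in WT, with 3 of the 10, and 7.19% were lower in S_PXT1_K118R than in S_PXT1, with 3 of the 10. The 49 factor genes under 20 counts summed to 0.661 times their PMSCV level in S_PXT1_K118R (0.550 to 0.792) and 0.597 times in S_PXT1 (0.494 to 0.720), a smaller shortfall than the 0.491 and 0.508 of all genes in that range. Markers of other cell types moved with these libraries as well. The 7 squamous epithelium markers summed to 0 counts in both S-labelled libraries, against 371 in WT_K118R, 938 in WT and 252 in PMSCV, and the 3 prostate markers to 0 in both, against 128 in WT_K118R, 126 in WT and 129 in PMSCV. The 4 plasma cell markers summed to 2 in both S-labelled libraries, against 22 in WT_K118R, 425 in WT and 636 in PMSCV. The 4 smooth muscle markers summed to 0 in S_PXT1_K118R and 1 in S_PXT1, against 2 in WT_K118R, 278 in WT and 65 in PMSCV, and the 4 fibroblast markers to 195 in S_PXT1_K118R and 181 in S_PXT1, against 561 in WT_K118R, 426 in WT and 411 in PMSCV. Their part in the low factor genes was not tested.

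The comparisons with no PMSCV library gave the S label and K118R apart. In S_PXT1_K118R over WT_K118R, 1 of 21 initiation factors was higher, EIF4E3, and 4 were lower, EIF4B, EIF3L, EIF3A and EIF3H, where 2.78% of all genes were higher and 7.82% lower. In S_PXT1 over WT, 0 were higher and 3 lower, EIF4B, EIF3L and EIF3A, where 3.04% were higher and 7.05% lower. In S_PXT1_K118R over S_PXT1, 0 were higher and 3 lower, EIF3L, EIF3A and EIF3H, where 3.36% were higher and 4.78% lower. In WT_K118R over WT, 0 were higher and 1 lower, EIF4E3, where 2.46% were higher and 2.84% lower. No elongation factor passed 2-fold in these 4 comparisons.

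S_PXT1 over WT and S_PXT1_K118R over WT_K118R share no library, and 16 of 21 initiation factors had the same sign in both, 10 negative and 6 positive. Of all 1547 genes, 60.4% had the same sign. Pearson's r of the log2 ratios across genes was 0.756 over the 21 factors and 0.519 over all genes, a description, since genes of the same libraries are not independent. The pair of K118R comparisons shares no library either, and there 10 of 21 initiation factors had the same sign, with 52.2% of all genes, and r was 0.02 over the factors and 0.04 over all genes. The median log2 ratio of the 21 initiation factors was 0.19, against 0.15 for all genes, in S_PXT1_K118R over PMSCV, and 0.12, against 0.20, in S_PXT1 over PMSCV. It was 0.10, against 0.10, in WT_K118R over PMSCV and 0.12, against 0.11, in WT over PMSCV. Without PMSCV it was -0.07, against 0.07, in S_PXT1 over WT, -0.0007, against 0.04, in S_PXT1_K118R over WT_K118R, 0.08, against -0.02, in S_PXT1_K118R over S_PXT1 and 0.0059, against 0.0012, in WT_K118R over WT. Over the 3 elongation factors it lay between -0.61 in S_PXT1 over WT and 0.03 in WT over PMSCV.

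**Figure D4:**
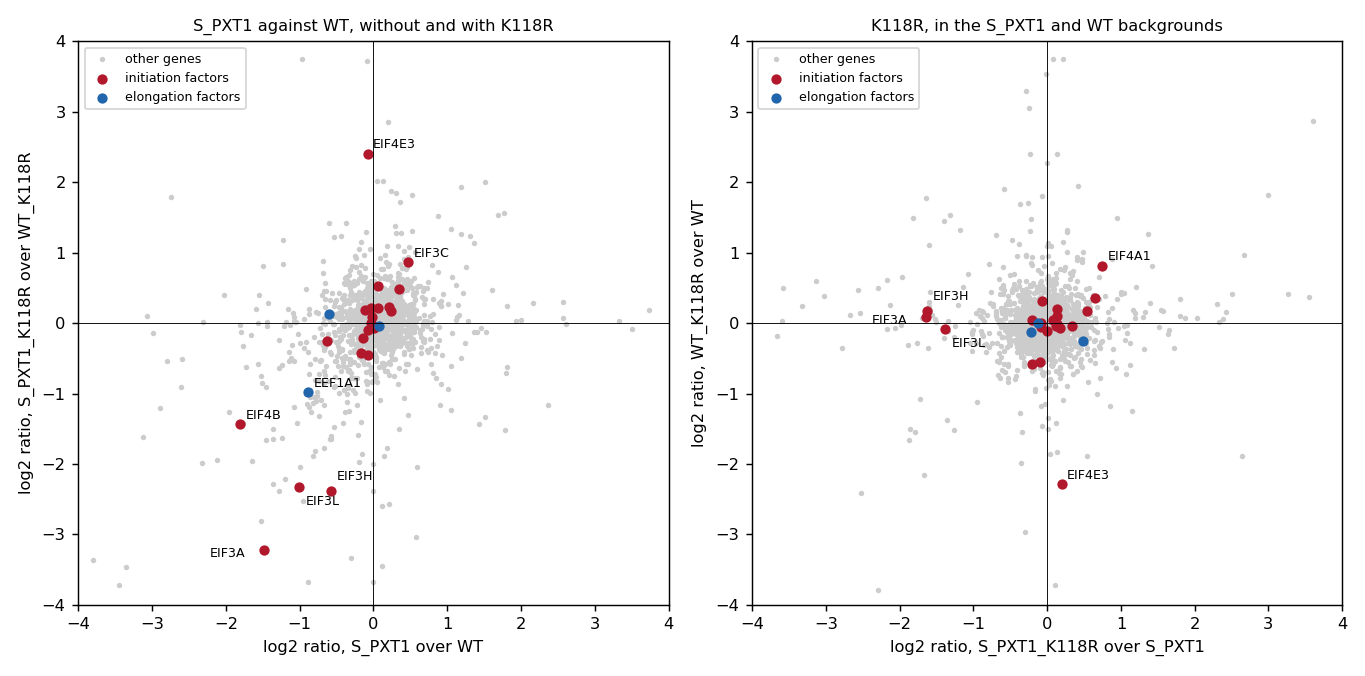
Log2 ratios of genes averaging 20 counts or more in 2 pairs of comparisons that share no library, S_PXT1 over WT against S_PXT1_K118R over WT_K118R (left) and K118R on the S_PXT1 background against K118R on the WT background (right). Initiation factors at the lower left of the left panel include EIF4B, EIF3A, EIF3H and EIF3L, the right panel shows no such line, and 58 and 33 other genes lie outside the axes at ±4.

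Both S-labelled libraries were above the other 3 for 5 of 21 initiation factors, EIF4G2, EIF5, EIF4A2, EIF3M and EIF3C, where 24.6% of all genes were. They were below for 5 initiation factors, EIF4B, EIF3L, EIF3E, EIF3A and EIF3H, and for EEF1A1 of the 3 elongation factors, where 12.6% of all genes were. The count above is thus a share like that of all genes. In the range of 20 to 50 counts, where the 5 lower initiation factors lie, 20.4% of all genes were below in both. A single library stood 2-fold below the other 4 for EIF3L, EIF3A and EIF3H in S_PXT1_K118R and for EIF4E3 in WT_K118R. Of all 1547 genes, 40 stood so in S_PXT1_K118R and 14 in WT_K118R. Over all libraries and in either direction, 1 library stood 2-fold apart for 8.53% of all genes.

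Genes that work beside these factors were counted in the same way. Of 6 termination and recycling genes, 3 averaged 20 counts or more and none was past 2-fold in any of the 8 comparisons. ETF1, which reads stop codons, had 3790 CPM in S_PXT1_K118R, 3419 in S_PXT1, 3568 in WT_K118R, 3334 in WT and 3026 in PMSCV. Of 23 partners and regulators of initiation, 9 did, and 1 of the 9 was past 2-fold lower in each of 3 comparisons, where 8.34% (S_PXT1_K118R over PMSCV), 7.82% (S_PXT1 over PMSCV) and 7.05% (S_PXT1 over WT) of all genes were, a share near that of all genes. TPT1, whose mRNA is a classic terminal oligopyrimidine message, had 48 counts in S_PXT1_K118R and 31 in S_PXT1, against 85 in WT_K118R, 92 in WT and 92 in PMSCV, and its fold was 0.369 in S_PXT1 over PMSCV (0.238 to 0.560) and 0.449 in S_PXT1 over WT (0.289 to 0.681). ATF4, the transcription factor translated when EIF2 is phosphorylated, had 14 counts in S_PXT1_K118R and 17 in S_PXT1, against 27 in WT_K118R, 28 in WT and 36 in PMSCV, with a fold of 0.430 in S_PXT1_K118R over PMSCV (0.214 to 0.817). None of the 9 was past 2-fold in the other 5 comparisons, and none was past it upwards, with PABPC4, a poly(A)-binding protein, just short of it on the log2 scale of CPM plus 1 in S_PXT1_K118R over PMSCV, where 116 counts stood against 64 and the fold of scaled counts was 2.004 (1.46 to 2.76). All 7 mitochondrial translation factors were under 20 counts, and together they had 14 counts in S_PXT1_K118R and 6 in S_PXT1, against 24 in WT_K118R, 31 in WT and 32 in PMSCV.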

How the data were processed

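RNA was sequenced from 5 Ba/F3 libraries, 1 for each label. The authors deposited raw read counts and FPKM values side by side for 50867 genes, per the file headers. Per the submitters' processing notes, cutadapt 1.9, HISAT2 2.2.1 and FastQC were used. The counting tool, strand setting, build and annotation were not given in the sources used here, so overlapping and copied genes are uncertain. Counts were scaled by TMM (edgeR 4.0.16, R 4.3.3). Folds are ratios of scaled counts, with exact 95% intervals from the 2 counts. Log2 ratios used CPM plus 1, and genes averaging 20 counts or more were called at 2-fold. No test fitted 1 library a group. Genes named were those past 2-fold in any comparison at that mean or among the most counted, and others named for role. Members and lists were chosen with earlier results of these data known. 1 marker gene is not reported here. Alternatives were DESeq2 1.42.0 size factors, total counts, FPKM, other filters, pseudocounts and thresholds, overlapping models, pseudogenes and left-out libraries. The calling step was tested on simulated data.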

Additional observations from a re-analysis of the deposited data

Results flagged for a closer look

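EEF2 moved in opposite directions with K118R on the 2 backgrounds. Its fold was 1.41 in S_PXT1_K118R over S_PXT1 (240 against 172 counts, interval 1.15 to 1.72) and 0.842 in WT_K118R over WT (290 against 349 counts, interval 0.718 to 0.987). With 1 library on each side the difference was not tested, and the intervals cover counting error only.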

How the results depend on the processing

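No paired analysis was possible because each group held 1 library. With DESeq2 size factors the initiation sum was 1.434 in S_PXT1_K118R over PMSCV, 1.378 in S_PXT1 over PMSCV, 1.149 in S_PXT1_K118R over WT_K118R and 1.119 in S_PXT1 over WT, and the elongation sum was 1.091 in S_PXT1_K118R over PMSCV and 1.036 in S_PXT1 over WT. With total counts the initiation sum was 1.316, 1.24, 1.14 and 1.14 in S_PXT1_K118R, S_PXT1, WT_K118R and WT over PMSCV, 1.155 in S_PXT1_K118R over WT_K118R and 1.062 in S_PXT1_K118R over S_PXT1. The elongation sum was then 1.034, 1.007 and 1.027 in S_PXT1, WT_K118R and WT over PMSCV and 0.9943 in S_PXT1_K118R over WT_K118R. Summed FPKM gave 1.19, 1.174, 1.105 and 1.124 for initiation in S_PXT1_K118R, S_PXT1, WT_K118R and WT over PMSCV and 1.077 in S_PXT1_K118R over WT_K118R. For elongation it gave 1.021 and 1.035 in WT_K118R and WT over PMSCV, 1.036 in S_PXT1 over WT, and 1.009 in S_PXT1_K118R over WT_K118R, the opposite side of 1, and EEF1A1 passed 2-fold in S_PXT1 over PMSCV, a count of 1.

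Without the most counted gene, the initiation sum was 1.179, 1.2, 1.134 and 1.2 in S_PXT1_K118R, S_PXT1, WT_K118R and WT over PMSCV, 1.04 in S_PXT1_K118R over WT_K118R and 0.9455 in WT_K118R over WT, and it changed sides in S_PXT1 over WT (0.9999) and S_PXT1_K118R over S_PXT1 (0.9829). The elongation sum was then 0.737, 0.5875, 0.9025 and 1.015 in the same 4 libraries over PMSCV, 0.8166 in S_PXT1_K118R over WT_K118R, 0.579 in S_PXT1 over WT, 1.254 in S_PXT1_K118R over S_PXT1 and 0.8894 in WT_K118R over WT. These changes follow from leaving out EIF4G2 and EEF1G.

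At a mean of at least 100 counts, 0 initiation factors passed 2-fold in any of the 8 comparisons. With no filter, 24, 26, 12 and 8 initiation factors and 6, 5, 6 and 4 elongation factors passed in S_PXT1_K118R, S_PXT1, WT_K118R and WT over PMSCV. There were 27 and 3 in S_PXT1_K118R over WT_K118R, 20 and 6 in S_PXT1 over WT, 22 and 5 in S_PXT1_K118R over S_PXT1, and 13 and 3 in WT_K118R over WT, where 9 of the 13 were higher. Without a filter, 1 count against 0 passes 2-fold, and fewer genes of the whole table had any count in the S-labelled libraries. At 1.5-fold, 8 and 3 initiation factors passed in S_PXT1_K118R and WT over PMSCV, 5 in S_PXT1_K118R over S_PXT1 and 2 in WT_K118R over WT, and 1, 1 and 2 elongation factors in S_PXT1 over PMSCV, S_PXT1_K118R over WT_K118R and S_PXT1 over WT. These counts hold both directions. In the order given, the initiation factors that were higher were EIF4G2, EIF1 and EIF5, then EIF1, then EIF4A1 and EIF2S1, then EIF4A1. At 3-fold, 3, 1, 1 and 0 initiation factors passed in S_PXT1_K118R, S_PXT1, WT_K118R and WT over PMSCV, 1 in S_PXT1 over WT, and 0 elongation factors in S_PXT1_K118R over PMSCV. The shares of all genes under these filters and thresholds are not given, so these counts are not a result about the factors.

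With overlapping models added, 0 initiation factors passed in WT over PMSCV, since EIF4A1 was then at 1.38. With pseudogene rows added, an alternative chosen after seeing the data, 3, 0 and 1 initiation factors passed in S_PXT1 over PMSCV, WT over PMSCV and S_PXT1 over WT, and 0 elongation factors in S_PXT1_K118R over PMSCV. EEF1A1 was then 1.141 in S_PXT1_K118R over PMSCV, EIF4B was 1.004 in S_PXT1 over WT, and the elongation sum was 1.122 and 1.183 in S_PXT1_K118R and S_PXT1 over PMSCV, 0.9985 in S_PXT1_K118R over WT_K118R and 1.063 in S_PXT1 over WT. The count of factor genes above in both S-labelled libraries, 5, was 9 with DESeq2 size factors, 8 with no filter, 3 at a mean of at least 100 counts, and 5 to 9 with 1 library left out, 8 without S_PXT1_K118R, 8 without S_PXT1 and 9 without WT. The count below, 6, was 23 with no filter, 1 at a mean of at least 100 counts, and 6 to 9 with 1 library left out, 9 without S_PXT1_K118R and 9 without PMSCV; these settings too were chosen after seeing the data. For these alternatives too, no share of all genes is given, so the counts are not a result about the factors. Pseudocounts of 0.1 and 5 CPM moved no count by over 1.5 times. With 1 library a group, no difference between groups can be told apart from a difference between libraries, and below about 20 counts only large folds could be resolved.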
